A study of Danio rerio with 3 samples.

Results

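Zebrafish (Danio rerio) scales kept with 3-hydroxybenzo[c]phenanthrene (3-OHBcP) were compared with scales kept with its parent compound benzo[c]phenanthrene (BcP). The members of the comparison were all probe sets that are not controls and that carry exactly 1 gene symbol, which made 10795 of 15502 probe sets and 8793 genes. For each of them the log2 signal of the BcP array was subtracted from that of the 3-OHBcP array. The only pair of compounds in the series is this 1 pair, and the names say that they differ by a hydroxyl group at position 3. Both were given at 1 nM for 6 h, so dose and time were matched.

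RNA was hybridised to 3 arrays of the Affymetrix Zebrafish Genome design, 1 for BcP, 1 for 3-OHBcP and 1 for control scales with neither compound. All scales came from anesthetised fish and were held at 15 °C for 6 h in L-15 medium, a culture medium that needs no carbon dioxide supply. The title names the question as how such compounds act on the bone-forming and bone-resorbing cells of scales. Fish strain, age and sex, the number of fish or scales behind each RNA sample and any solvent in the control medium are not given in the sources used here. With 1 array per group there is no spread between replicates, and an effect of a compound cannot be told apart from a difference between RNA samples or arrays. Every difference below is therefore a description of 2 arrays, with no test and no interval, and the number of arrays limits the precision.

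A polycyclic aromatic hydrocarbon such as BcP is a flat molecule of fused carbon rings that is formed when organic matter burns. Cells oxidise such compounds with cytochrome P450 enzymes, and hydroxylated forms are among the products. Many members of this class bind the aryl hydrocarbon receptor, a transcription factor whose best known target is the P450 gene cyp1a, and some hydroxylated forms are known to bind estrogen receptors. A fish scale is a thin plate of bone and collagen that carries bone-forming osteoblasts, bone-resorbing osteoclasts and a cover of epidermis.

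The arrays had the profile of scale with skin. Log2 signals of the bone matrix genes col1a1a and col10a1b, which encode collagens, were 12.38 and 12.77 with BcP and 12.47 and 12.70 with 3-OHBcP. Epidermal genes were as bright, with the keratin gene krt4 at 12.83 on all 3 arrays. The osteoblast transcription factor gene sp7 was below the level filter described next, at 4.84 and 4.97. Among markers of other tissues, the red blood cell gene hbaa1 was clearly present (10.24 with BcP and 9.90 with 3-OHBcP). The neutrophil gene mpx was above the filter. The neutrophil gene lyz barely reached it, through the BcP array only, and was under it on the control and 3-OHBcP arrays. The macrophage gene csf1ra, the muscle genes ckma and mylpfa and the pigment genes dct and gch2 were below the filter. So were the endothelial gene kdrl and the nerve and glia genes mbpa and elavl3. Of the other muscle genes, actc1b was above the filter at 6.10 on the control array, 6.35 with BcP and 6.23 with 3-OHBcP, and the myoglobin gene mb stood at 7.75, 8.03 and 7.58. The 18 hybridisation spike-in probe sets, which read transcripts added in fixed amounts, had a median difference of -0.17 between the compounds, with 17 lower on the 3-OHBcP array. For the 24 poly-A RNA spike-in probe sets the median was 0. The 3' end of GAPDH read above its 5' end by 2.15 with BcP and by 2.03 with 3-OHBcP on the log2 scale, and for actin the same measure of RNA integrity was -0.35 and -0.70. The part of these differences in the results was not tested.

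Across genes the 2 compound arrays were nearly alike. The probe set brightest on average over the 3 arrays stood for its gene, and 5248 genes whose mean reached log2 5.35, the median of all probe sets that are not controls, are called kept genes here. Of these, 93.1% lay within 1.2-fold and 99.4% within 1.5-fold, and 31.0% held exactly the same deposited value on both arrays. A difference of exactly 0 is therefore common and is not a precise measurement. Exact ties with the control array also occur, and the same limit holds for them. Of the kept genes, 26.1% were above 0 and 42.9% below 0. After centring each array on its median, which moves the differences by 0.018, that split became 63.4% and 36.6%, and it was 54.3% and 44.4% after quantile normalization and 60.3% and 39.7% with the trend on signal removed. The side of 0 on which a gene with a small difference lies thus depends on the scaling, and gene groups are set below against the median of all kept genes, which was 0.

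Among genes that stood well apart, more were higher with the hydroxylated compound. With 3-OHBcP, 25 genes (0.476%) stood at least 1.5-fold above BcP and 7 (0.133%) at least 1.5-fold below it. At 2-fold, 5 (0.0953%) were higher and 1 (0.0191%) lower. At 1.2-fold 183 genes (3.49%) were higher and 180 (3.43%) lower, a balance that depended on the setting, with 203 and 149 after centring and 230 and 259 without the level filter. Over all 10795 member probe sets, 38 (0.352%) were at least 1.5-fold higher and 11 (0.102%) lower, and 9 (0.0834%) and 1 (0.00926%) at 2-fold. At the edge of 1.5-fold, the gene smox differed by 0.57 and was just outside, and nip7 at -0.59 was just inside on the lower side.

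The balance between higher and lower genes differed with signal level. Of the 1050 dimmest kept genes 18 were at least 1.2-fold higher and 32 lower, whereas of the 1050 brightest 55 were higher and 22 lower. At 1.5-fold, 7 of these brightest genes were higher and 1 was lower. Probe set names carry an A or an S for orientation, and of 2575 genes read by a probe set marked A, 16 were at least 1.5-fold higher and 2 lower. For 2673 marked S the counts were 9 and 5.

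**Figure D1:**
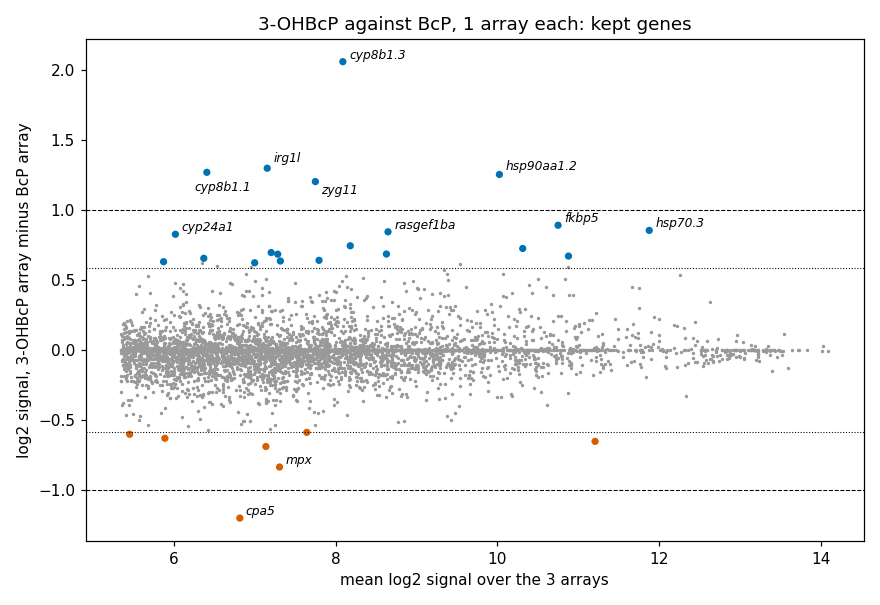
Difference in log2 signal, 3-OHBcP array minus BcP array, against the mean log2 signal over the 3 arrays, with 1 point for each of 5248 kept genes. Dotted lines mark 1.5-fold and dashed lines 2-fold, and coloured points are those past 1.5-fold among the 20 highest and 20 lowest genes. The gene cyp8b1.3 stands highest at 2.06 and cpa5 lowest at -1.20.

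The gene farthest apart was cyp8b1.3, of the P450 family whose mammalian member hydroxylates sterols on the way to bile acids. Its log2 signal was 8.25 on the control array, 6.98 with BcP and 9.04 with 3-OHBcP, a difference of 2.06 between the compounds (4.17-fold). The BcP array was the lowest and the 3-OHBcP array the highest of the 3, with the control array between them.

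The related gene cyp8b1.1 showed the same order at a lower level. It stood at 6.39 on the control array, 5.78 with BcP and 7.05 with 3-OHBcP, a difference of 1.27 (2.41-fold). In a RefSeq gene table of the zebrafish assembly GRCz12tu the pair are neighbours, with 0 protein-coding genes between them. Of the 31 genes at least 1.5-fold apart that could be placed in that table, no other pair lay within 10 genes of each other. Their probe sets share a cluster number, so the pair may be read in part from near-identical transcripts. Both are included in the counts of genes given here and are not independent of each other. A dimmer cyp8b1.1 probe set of another cluster, below the level filter, differed by 0.06. No probe set carried the name cyp8b1.2.

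Other P450 genes were also among the highest. Vitamin D is inactivated by the product of cyp24a1, and this gene stood at 6.13 on the control array, 5.55 with BcP and 6.38 with 3-OHBcP, a difference of 0.83. A second cyp24a1 probe set below the level filter differed by -0.04. The aryl hydrocarbon receptor target cyp1a stood at 7.68, 6.62 and 7.31 in the same order, so that with 3-OHBcP it was 0.69 above BcP and still under the control array. Its probe set shares a cluster number with those of the neutrophil gene mpx, which was lower with 3-OHBcP.

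Of 12 kept P450 genes of the list, which does not hold the cholesterol enzyme cyp51, 5 were higher, 5 lower and 2 equal. The 4 that were at least 1.5-fold apart were all higher. These were the 4 just described, and they include the cyp8b1 pair. Over all kept genes 26.1% were higher and 42.9% lower, and at 1.5-fold 0.476% and 0.133%. The retinoic acid-degrading enzyme genes cyp26a1 and cyp26b1 differed by 0.09 and 0, and cyp3c1 by -0.02. The lowest was cyp2p10 at -0.30, from a signal close to the filter (5.46 with BcP and 5.16 with 3-OHBcP). The P450 genes thus ran from well apart to equal. The 4 far apart were all higher, and the others were lower, equal or, for cyp26a1, slightly higher.

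The wider list held 16 kept bile acid, steroid and retinoid enzyme genes. Of these, 6 were at least 1.2-fold higher and 1 lower, against 3.49% and 3.43% of all kept genes. Besides the P450 genes, the higher ones were fdx1, which encodes the electron carrier of mitochondrial P450 enzymes (10.29 on the control array, 10.21 with BcP and 10.67 with 3-OHBcP), the steroid reductase gene srd5a2a (10.77, 10.76 and 11.14) and the bile acid synthesis gene hsd3b7 (10.41, 10.16 and 10.45). For fdx1 and srd5a2a the control and BcP arrays were close together and the 3-OHBcP array was above both. The lower gene was sdr16c5b, of a family of retinol dehydrogenases, at 5.87, 6.22 and 5.58.

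Cholesterol synthesis genes stood higher with 3-OHBcP as a group, whereas 26.1% of all kept genes were higher and 42.9% lower. Of 14 kept genes of the list, 12 were higher, 2 lower and 0 equal, 5 were at least 1.2-fold higher and 0 lower, and the list median was 0.176 against 0 over all kept genes. Log2 signals of acat2, whose product makes acetoacetyl-CoA at the start of the pathway, were 8.58 on the control array, 8.31 with BcP and 9.0 with 3-OHBcP. The lanosterol demethylase gene cyp51 stood at 6.97, 6.70 and 7.32, and its second brightest probe set at 6.37, 6.00 and 7.16, a difference of 1.16. On both genes the 3-OHBcP array was the highest and the BcP array the lowest.

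Several other genes of the pathway were also highest with 3-OHBcP. For the reductase gene dhcr7, which acts in the last step to cholesterol, signals were 8.99, 8.82 and 9.26, and for the sterol oxidase gene msmo1 they were 9.18, 9.15 and 9.56. The squalene synthase gene fdft1 was level on the control and BcP arrays at 8.02 and stood at 8.32 with 3-OHBcP. The dehydrogenase gene nsdhl was equal on the control and BcP arrays at 6.67 and stood at 6.75 with 3-OHBcP. The synthase gene hmgcs1 differed by 0.15, and insig1 and insig2, which encode retention proteins of the sterol sensor, differed by 0.03 and -0.02. The lowest member was mylipa at -0.16, which encodes a ubiquitin ligase that degrades the lipoprotein receptor. Not every member was highest with 3-OHBcP. The control array was highest for ggps1 (8.55, 7.96 and 8.17), npc1 (7.50, 7.07 and 7.25), insig1 and mylipa. It was equal to the 3-OHBcP array for fdps at 8.70, and insig2 was highest with BcP. Above the median of all kept genes were 12 or 13 of the 14 members under each of the 3 other scalings.

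A few chaperone genes stood higher with 3-OHBcP, whereas the heat shock list as a whole had a median difference of 0. The Hsp90 gene hsp90aa1.2 had log2 signals of 10.20 on the control array, 9.31 with BcP and 10.57 with 3-OHBcP, a difference of 1.25 (2.38-fold). Its second probe set, at 8.34, 7.79 and 8.96, differed by 1.17. The stress-inducible gene hsp70.3 stood at 11.92, 11.43 and 12.29, read by a probe set of the kind that may match near-identical copies. On each of these probe sets BcP was the lowest array and 3-OHBcP the highest.

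The co-chaperone gene dnajb1b (12.34, 11.96 and 12.49) and the Hsp110 gene hspa4a (8.46, 8.03 and 8.54) followed with differences of 0.54 and 0.51. The constitutive genes hspa8 and hsp90ab1 were at 13.17 and 12.64 with BcP and at 13.17 and 12.65 with 3-OHBcP. The mitochondrial chaperonin genes hspd1 and hspe1 lay lower, at -0.21 and -0.19. Of 40 kept genes of the heat shock list, 14 were higher, 18 lower and 8 equal, and the median was 0. All kept genes had 26.1% higher and 42.9% lower. At least 1.2-fold higher were 4 and lower 0, against 3.49% and 3.43% of all kept genes. The difference was thus carried by 4 of the 40 genes.

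Genes known in mammals and fish to respond to glucocorticoids stood higher with 3-OHBcP, whereas 26.1% of all kept genes were higher. Of 14 kept genes, 12 were higher, 1 lower and 1 equal, 4 were at least 1.2-fold higher and 0 lower, with a list median of 0.165. The immunophilin gene fkbp5, which encodes an Hsp90 co-chaperone of the receptor, stood at 10.81 on the control array, 10.28 with BcP and 11.17 with 3-OHBcP, a difference of 0.89 (1.85-fold). The transcription factor gene klf9 stood at 10.58, 10.40 and 10.84. For both genes the control array lay between the compounds.

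The other members at least 1.2-fold apart had exactly equal deposited values on the control and 3-OHBcP arrays, ties that are not precise measurements. For the phosphatase gene dusp1 these were 11.86, against 11.56 with BcP, and for tsc22d3, which encodes the leucine zipper protein GILZ, they were 10.36, against 10.07. The kinase gene sgk1 differed by 0.25 and cebpd by 0.22, while socs3a was equal and txnipa lay at -0.11. The receptor gene nr3c1 itself stood at 9.48 on the control array, 9.44 with BcP and 9.48 with 3-OHBcP, and its other kept probe sets differed by 0.00 and -0.26. This list is bright, with a median log2 signal of 10.6 against 7.26 over all kept genes, and of all kept genes 29.9% of the brightest 1050 but 22.3% of the dimmest 1050 were higher. Relative to the median of all kept genes its median was between 0.135 and 0.195 over all 9 alternative settings.

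**Figure D2:**
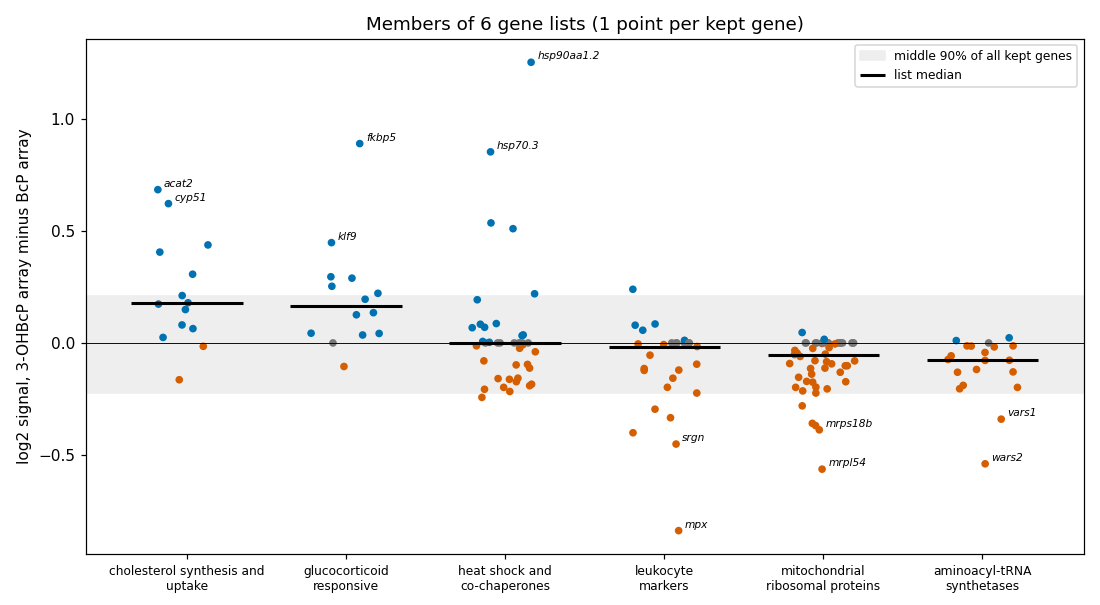
Differences in log2 signal, 3-OHBcP array minus BcP array, of the kept members of 6 gene lists, with 1 point per gene, black bars at the list medians and a grey band over the middle 90% of all kept genes. Most members of the cholesterol and glucocorticoid lists lie above 0, the heat shock list has 4 genes far above a centre at 0, and the mitochondrial ribosome and tRNA synthetase lists lie mostly below 0.

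The remaining genes among the highest 20 had varied roles. The gene irg1l, a homologue of the mammalian enzyme that makes itaconate in macrophages, stood at 7.77 on the control array, 6.20 with BcP and 7.50 with 3-OHBcP, where it was 2.46-fold higher. The ubiquitin ligase subunit gene zyg11 stood at 8.10, 6.98 and 8.18, or 2.30-fold higher with 3-OHBcP. For zyg11 the control and 3-OHBcP arrays were close, whereas for irg1l the 3-OHBcP array differed from the control array by -0.27. For both genes the BcP array lay far below the other arrays.

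Signals of rasgef1ba, which encodes an exchange factor for Ras-family proteins, were 8.72, 8.19 and 9.03. The hypoxia-inducible factor gene hif1al stood at 10.42, 9.90 and 10.62, whereas its relatives hif1ab and epas1a were equal on both compound arrays and no other of the 28 kept genes of the hypoxia and glycolysis list reached 1.5-fold. The desmosome gene dsc2l stood at 11.14, 10.42 and 11.09, and its second probe set differed by 0.63. In these genes too the BcP array was the lowest.

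Differences of 0.63 to 0.74 were seen for cyld2, the mitochondrial adenylate kinase gene ak4, the glutamine synthetase gene glula, the phospholipid remodelling enzyme gene lpcat4 and the collagen chaperone gene serpinh1b. Just after the highest 20 came the mitochondrial fatty acid oxidation gene hadhaa at 0.62 and the Notch-related repressor gene her9 at 0.61. No role is given here for si:ch211-214b16.3, at 0.65.

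**Figure D3:**
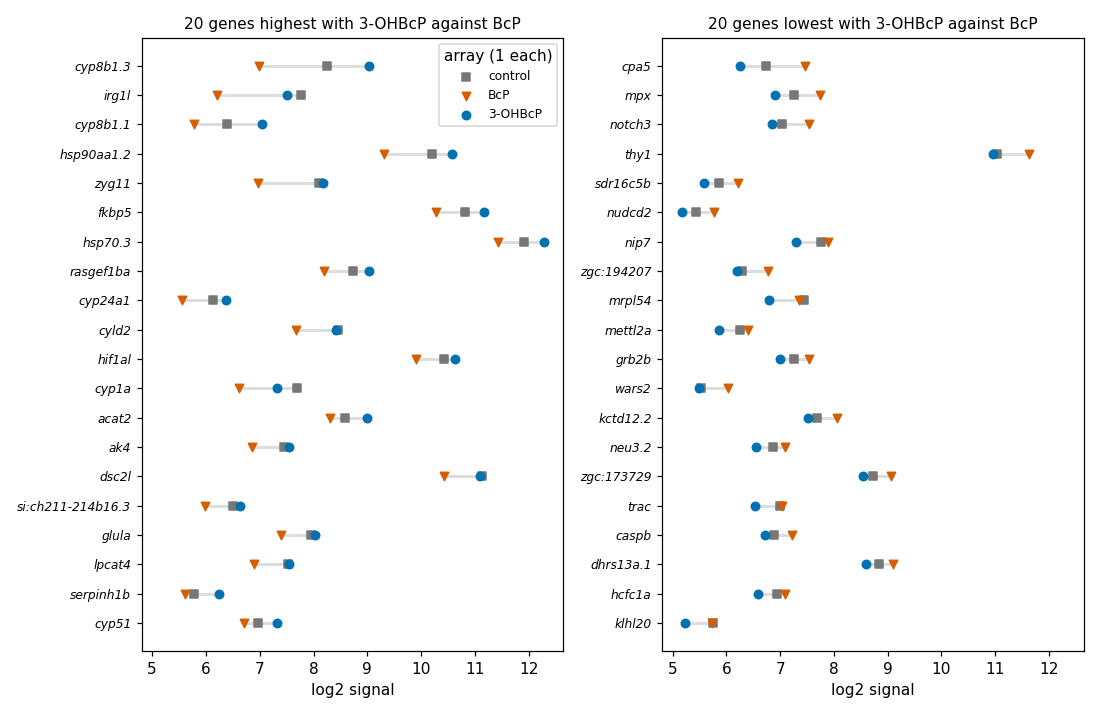
Log2 signal on the control array (squares), the BcP array (triangles) and the 3-OHBcP array (circles), 1 array each, for the 20 genes highest (left) and the 20 lowest (right) with 3-OHBcP against BcP. In the left panel every BcP triangle is the lowest point of its row, and in the right panel every 3-OHBcP circle is the lowest. The genes were chosen by the gap between the compound arrays, so only the place of the control square is not set by that choice.

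The control array lay nearer to the 3-OHBcP array for most of the higher genes. Of the 25 genes at least 1.5-fold higher with 3-OHBcP, the control value was between the compounds for 21 and above both for 4, and it was nearer to 3-OHBcP for 20. Of the 183 at 1.2-fold, it was nearer to 3-OHBcP for 146 and nearer to BcP for 37. Of the 7 genes at least 1.5-fold lower, the control value was between the compounds for all 7 and nearer to 3-OHBcP for 6. Of the 180 genes at least 1.2-fold lower, it was nearer to 3-OHBcP for 91 and nearer to BcP for 89. These genes were chosen by the gap between the compound arrays, and the counts describe where the single control array fell within that gap.

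On the lower side, the gene farthest apart was cpa5, which encodes a carboxypeptidase of the A family. Its log2 signal was 6.73 on the control array, 7.46 with BcP and 6.26 with 3-OHBcP, a difference of -1.20 (2.30-fold lower). The gene notch3, for a Notch receptor, stood at 7.03, 7.54 and 6.85, and thy1, for a surface glycoprotein, at 11.04, 11.62 and 10.97. For all 3 genes the control array lay between the compounds, and for notch3 and thy1 it lay near 3-OHBcP.

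Several of the lower genes act in protein synthesis. The ribosome assembly gene nip7 stood at 7.75 on the control array, 7.89 with BcP and 7.30 with 3-OHBcP, the mitochondrial ribosomal gene mrpl54 at 7.44, 7.35 and 6.79, and the tRNA methyltransferase gene mettl2a at 6.25, 6.41 and 5.87. For these 3 genes the control and BcP arrays were close and the 3-OHBcP array was the lowest. The mitochondrial tryptophanyl-tRNA synthetase gene wars2, by contrast, was near the control with 3-OHBcP, at 5.52, 6.03 and 5.49.

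The other lower genes included signalling and immune genes. The adaptor gene grb2b differed by -0.54 and its second probe set by -0.28, and the sialidase gene neu3.2 differed by -0.53. The T cell receptor constant region gene trac stood at 7.0 on the control array, 7.04 with BcP and 6.53 with 3-OHBcP, and the inflammatory caspase gene caspb at 6.89, 7.23 and 6.72, with a second caspb probe set at -0.34. The transcriptional coregulator gene hcfc1a differed by -0.51. The gene nudcd2, at -0.60, is uncertain, since its second probe set differed by -0.04. The cullin adaptor gene klhl20 stood at 5.74, 5.74 and 5.23. Further genes among the lowest 20 were kctd12.2 at -0.54, with a second probe set below the filter at -0.24, and dhrs13a.1 at -0.51.

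More leukocyte genes were lower with 3-OHBcP than higher. Of 27 kept markers 5 were higher, 16 lower and 6 equal, 0 were at least 1.2-fold higher and 5 lower, and the median was -0.016. Over all kept genes 26.1% were higher and 42.9% lower, and at 1.2-fold 3.49% and 3.43%. The lower markers include lyz, which reached the level filter only through the BcP array. Log2 signals of mpx, the neutrophil myeloperoxidase gene, were 7.26 on the control array, 7.75 with BcP and 6.91 with 3-OHBcP, although another kept mpx probe set, at 6.18, 6.64 and 6.45, differed by only -0.19. The granule proteoglycan gene srgn stood at 9.51, 9.69 and 9.24, the actin regulator gene coro1a at 9.50, 9.75 and 9.35, and the pan-leukocyte gene ptprc at 8.22, 8.28 and 7.98. A second coro1a probe set differed by 0.02. The highest member was nccrp1 at 10.83, 10.60 and 10.84, a difference of 0.24, followed by the cathepsin genes ctss2.1 and ctss2.2 at 0.08 each.

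Other leukocyte genes were level between the compounds. The antigen presentation genes cd74a and cd74b, the brightest of the list, stood at 13.23 and 13.00 with BcP and at 13.22 and 13.00 with 3-OHBcP, and the phagocyte genes ncf1 and spi1b were equal. The summed linear signal of the 27 markers was 37083 on the control array, 37535 with BcP and 36444 with 3-OHBcP, a ratio of 0.971. After centring each array on its median, 14 of the 27 were above 0 and 13 below, against 63.4% and 36.6% of all kept genes. Relative to the median of all kept genes, 5 lay above and 16 below, as before centring. After quantile normalization these were 12 and 15, and with the trend on signal removed 11 and 16. In a bulk sample, fewer cells of a type and less RNA per cell cannot be told apart. The red blood cell gene hbaa1 was also lower with 3-OHBcP, at 9.87, 10.24 and 9.90.

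Genes of mitochondrial protein synthesis lay slightly but widely lower with 3-OHBcP. Across all kept genes 26.1% were higher and 42.9% lower, and at 1.2-fold 3.49% and 3.43%. Of 52 kept mitochondrial ribosomal protein genes, 2 were higher, 34 lower and 16 equal, with a median of -0.056. At least 1.2-fold higher were 0, and 5 were at least 1.2-fold lower. The highest, mrps35, differed by 0.05. After mrpl54, the lowest were mrps18b (6.63 on the control array, 6.77 with BcP and 6.38 with 3-OHBcP), mrps18c (7.48, 7.73 and 7.36) and mrpl57 (7.28, 7.44 and 7.08). A second mrps18b probe set, which was below the level filter, differed by -0.66. After quantile normalization 35 of the 52 lay below the median of all kept genes and 17 above, and with the trend on signal removed 36 and 16.

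The enzymes that load amino acids on tRNA gave a similar picture, beside the same 26.1% higher and 42.9% lower over all kept genes. Of 20 kept aminoacyl-tRNA synthetase and partner genes, 2 were higher, 17 lower and 1 equal, with a median of -0.076, and 0 were at least 1.2-fold higher and 2 lower. Besides wars2, the valyl-tRNA synthetase gene vars1 stood at 6.60, 6.90 and 6.56, tars1 differed by -0.20 and kars1 by -0.20. A dimmer vars1 probe set below the level filter differed by -0.05. Under the 3 other scalings 17 or 18 of the 20 lay below the median of all kept genes.

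Larger housekeeping groups had more lower than higher genes as deposited, and how far, and for cytosolic ribosomal proteins to which side, depended on the scaling. Over all kept genes, 26.1% were higher and 42.9% lower. Of 72 kept cytosolic ribosomal protein genes, 6 were higher and 40 lower with a median of -0.003. With the trend on signal removed 37 lay above the median of all kept genes and 35 below, and after quantile normalization 29 and 43. Of 82 respiratory chain and ATP synthase genes, 5 were higher and 48 lower with a median of -0.012. The same alternatives gave 36 above and 46 below, and 15 and 67. The 59 translation factor genes had 6 higher and 34 lower, and under these alternatives 24 above and 35 below, and 16 and 43. The 119 splicing factor genes had 16 higher and 67 lower, and likewise 49 above and 70 below, and 34 and 85. Among them were lsm6 at -0.37 and hnrnpua at 0.34. In none of these 4 lists did more than 7 genes differ by 1.2-fold or more.

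Bone-forming genes showed no common direction between the compounds. Of 34 kept osteoblast and bone matrix genes 15 were higher, 15 lower and 4 equal, and the median was 0. All kept genes had 26.1% higher, 42.9% lower and 31.0% equal, so the share of higher genes was larger in this list. The highest was serpinh1b, whose product folds collagen, at 5.77 on the control array, 5.61 with BcP and 6.24 with 3-OHBcP, and next came the collagen cross-linking enzyme gene loxl2b at 0.30 and the homeobox gene dlx3b at 0.28. The lowest was runx3, a transcription factor gene of bone and blood cells, at 10.09, 10.39 and 10.06, and its second probe set differed by -0.43.

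Collagens lay close together on both compound arrays. Log2 signals of col1a2 were 12.12 on the control array, 12.50 with BcP and 12.70 with 3-OHBcP, and of col10a1a 11.78, 11.97 and 11.78. Differences of 0.08 for col1a1a and -0.07 for col10a1b were smaller still, and 0 of 11 kept collagen genes differed by 1.2-fold. Of all kept genes, 93.1% lay within that fold. Second probe sets of col1a1a and col1a2 differed by 0.19 and 0.00. The osteonectin gene sparc differed by -0.04, the osteopontin gene spp1 by -0.15 and the phosphatase gene alpl by 0.04. The probe set named runx2a stood at 7.33, 8.08 and 7.95, a difference of -0.13. It shares a cluster number with a col1a1a probe set, and whether it reads runx2a or collagen was not tested. A second runx2a probe set was equal on both compound arrays. Below the level filter, sp7 differed by 0.12 and runx2b by -0.04.

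Osteoclast genes were also near level. Over all kept genes 26.1% were higher and 42.9% lower, and 93.1% lay within 1.2-fold. Of 23 kept genes, 6 were higher, 12 lower and 5 equal with a median of -0.011, and 1 differed by 1.2-fold or more. That gene was mmp14a, which encodes a membrane-bound matrix protease, at 8.74, 8.29 and 8.67, although its second probe set was equal on both arrays. The gene ctsk, for the cathepsin that digests bone collagen, stood at 10.15 on each of the 3 arrays, the acid phosphatase gene acp5a differed by -0.12, and the secreted proteases mmp9 and mmp13a by -0.20 and -0.12. The summed linear signal of the list was 15188 on the control array, 15233 with BcP and 14768 with 3-OHBcP. By far the brightest member was fosab (12.41, 12.51 and 12.42), which is also in the immediate early list and weighs heavily in this sum.

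Genes for receptors that could bind these compounds differed little themselves. For the lists that follow, all kept genes had 26.1% higher and 42.9% lower, and at 1.2-fold 3.49% and 3.43%. Of the aryl hydrocarbon receptor list, 7 of 11 kept genes were higher, 4 lower and 0 equal, with 2 at least 1.2-fold higher and a median of 0.025. After cyp1a came tiparp, which encodes a feedback regulator of the receptor, at 9.99 on the control array, 9.73 with BcP and 10.06 with 3-OHBcP. The quinone reductase gene nqo1 differed by 0.15, the receptor gene ahr2 by 0.03 and cyp1c1, another receptor target, by -0.06. The estrogen receptor gene esr2a stood at 5.94 with BcP and 5.76 with 3-OHBcP, while esr1 (3.03 and 2.76) and esr2b (4.58 and 4.77) were below the level filter. Of 11 kept estrogen signalling genes 4 were higher and 4 lower, and the 1 at least 1.2-fold apart was the pioneer factor gene foxa1 at -0.34.

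Tight junction genes were more often higher than lower with 3-OHBcP, by small amounts. All kept genes had 26.1% higher and 42.9% lower, and at 1.2-fold 3.49% and 3.43%. Of 23 kept claudin and other tight junction genes, 13 were higher, 5 lower and 5 equal, and 2 were at least 1.2-fold higher and 0 lower, with a median of 0.0077. The claudin gene cldnf stood at 7.32 on the control array, 6.41 with BcP and 6.95 with 3-OHBcP, and the occludin gene oclnb at 9.07, 8.69 and 8.98. Both compounds were below the control for these genes, and BcP was the lower. The value of cldng, at 0.17, is uncertain, since 2 of its other probe sets differed by -0.02 and -0.11. Of 22 kept desmosome, adherens and gap junction genes, 7 were higher, 6 lower and 9 equal, with a median of 0, and after quantile normalization 10 lay above the median of all kept genes and 12 below. The keratin list, taken by gene name, had 12 kept genes, of which 6 were equal, among them krtcap2, which is not a keratin. The highest, krt15, stood at 10.69, 10.50 and 10.89.

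Notch and ephrin genes included large differences on both sides. Against notch3 at -0.69 stood her9, a repressor gene of the hairy family, at 9.47 on the control array, 9.28 with BcP and 9.89 with 3-OHBcP, and the Notch ligand gene jag1a at 6.29, 5.82 and 6.13. The ephrin gene efna5a differed by 0.49, but a second kept probe set differed by -0.23. Of the 25 kept genes 8 were higher, 11 lower and 6 equal, beside 26.1%, 42.9% and 31.0% of all kept genes. The fringe gene lfng, which tunes Notch ligand choice, lay at -0.25, and notch2 at 0.07.

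Among clock genes, 11 of 27 kept were higher, 8 lower and 8 equal, beside 26.1% higher and 42.9% lower over all kept genes. The 2 at least 1.2-fold apart were both higher. These were the nuclear receptor gene rorab (8.25, 7.88 and 8.24) and the cryptochrome gene cry1b (6.41, 6.09 and 6.41), each equal or nearly so on the control and 3-OHBcP arrays. The light-induced gene per2 differed by 0.04. Of 55 kept solute carrier genes 6 were at least 1.2-fold higher and 1 lower, against 3.49% and 3.43% of all kept genes. The highest were the amino acid transporter genes slc43a2a (0.45) and slc7a7 (0.40). In slc7a7 both compounds were below the control, at 6.01, 5.09 and 5.49. Its BcP signal was under the level filter, and with 32 added to the linear value its difference was 0.22.

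Several genes of stress, p53 and apoptosis control stood higher with 3-OHBcP, whereas 26.1% of all kept genes were higher and 42.9% lower. The gene gadd45bb, of a family induced by stress, stood at 9.47 on the control array, 9.07 with BcP and 9.61 with 3-OHBcP, and the p53 inhibitor gene mdm4 at 7.0, 6.78 and 7.17. The p53 and apoptosis list had 20 of 42 kept genes higher, 12 lower and 10 equal, with 6 at least 1.2-fold higher and 0 lower, and the immediate early list 24 of 45 higher, 14 lower and 7 equal, with 7 and 1, against 3.49% higher and 3.43% lower at that fold over all kept genes. In the endoplasmic reticulum stress list, chac1, which encodes a glutathione-degrading enzyme, was higher at 0.44 (a second probe set below the filter was equal), while the protein disposal gene derl2 was lower at -0.41 with a second probe set at -0.02. The peroxidase gene gpx1b (0.39) and the glutathione synthesis gene gclm (0.35) were the highest of the 39 kept glutathione and oxidative stress genes, of which 11 were higher and 16 lower. The inflammatory list had 21 of 46 kept genes higher, 8 lower and 17 equal with a median of 0, and after quantile normalization 35 lay above the median of all kept genes and 11 below. At 1.2-fold 4 were higher, led by irg1l, and 3 lower, among them tnfaip8l2a (-0.49) and the haptoglobin gene hp (-0.48).

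**Figure D4:**
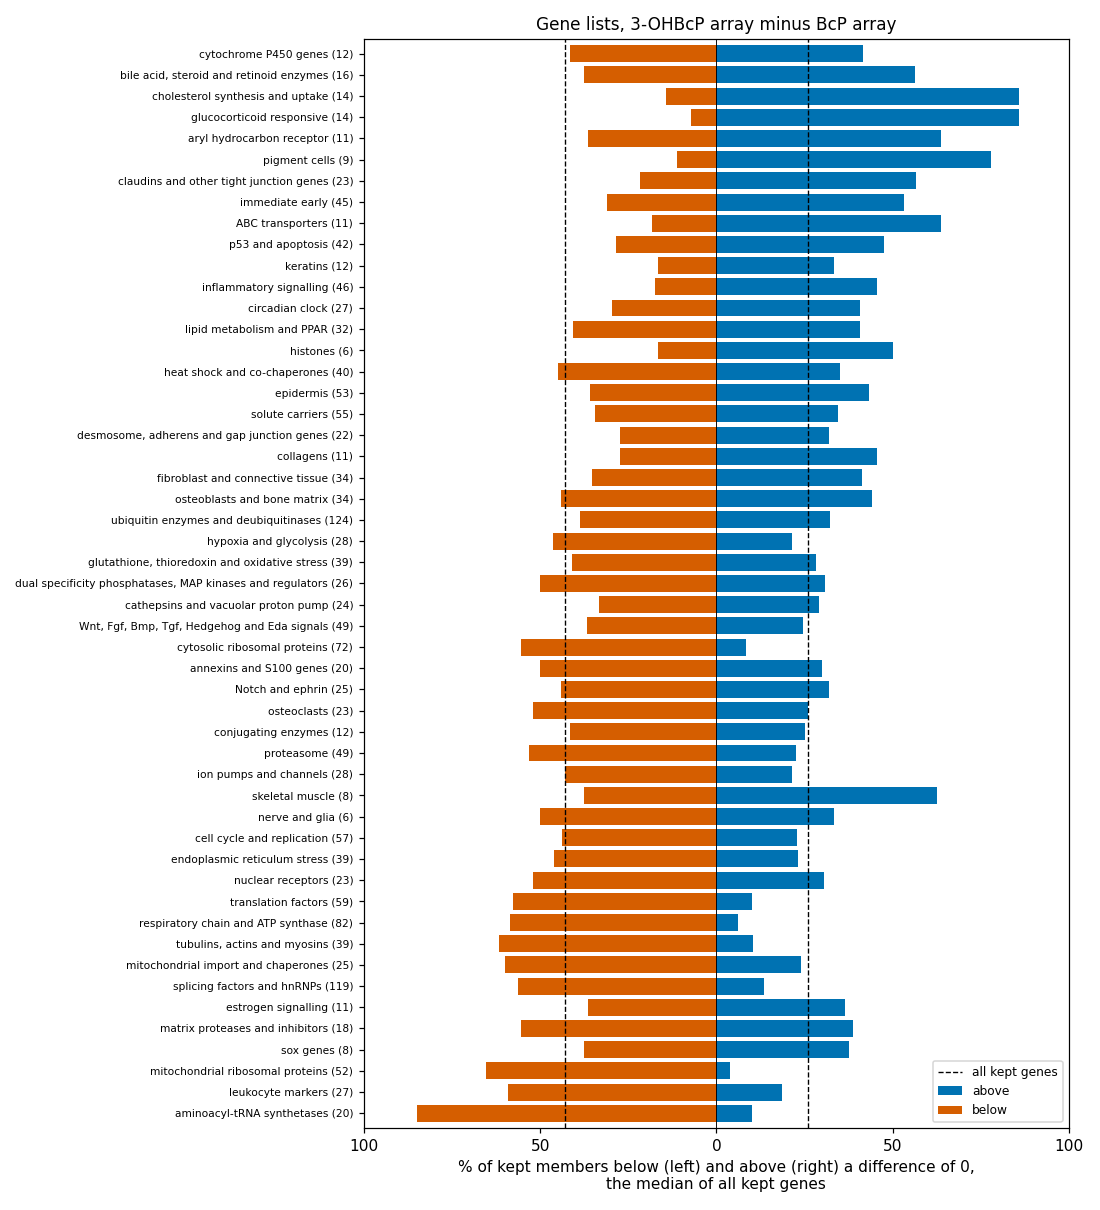
Share of the kept members of each gene list below (left) and above (right) a difference of 0 between the 3-OHBcP and BcP arrays, with the number of kept members in brackets and lists in the order of their mean difference. Dashed lines mark the 42.9% and 26.1% of all kept genes, and the rest of each list is exactly equal. The cholesterol and glucocorticoid lists have the largest shares above 0, 85.7% each, and the aminoacyl-tRNA synthetases the largest share below, 85.0%.

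Genes with several probe sets show how far the choice of probe set matters, though not how far the arrays do. For 638 genes with at least 2 probe sets above the level filter, the differences of the 2 brightest correlated across genes at Pearson r = 0.528 and Spearman rho = 0.409, or r = 0.476 without the 2 genes farthest from the median. The probe sets share the same arrays and RNA, and genes are not independent replicates. The median gap between them was 0.069. Of 5 such genes at least 1.5-fold apart, the second probe set was at least 1.5-fold apart on the same side for 3, namely hsp90aa1.2, dsc2l and cyp51, and not for mpx and nudcd2. Of 38 genes at least 1.2-fold apart, it was on the same side of 0 for 32, but at least 1.2-fold apart on that side for only 16. It was exactly 0 for 2 and on the other side of 0 for 4.

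**Figure D5:**
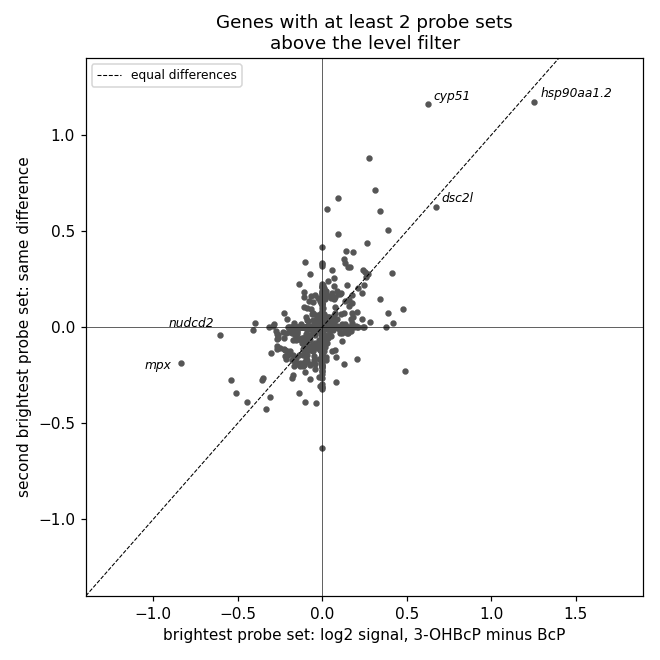
Difference in log2 signal, 3-OHBcP array minus BcP array, of the second brightest probe set (vertical axis) against the brightest (horizontal axis) for 638 genes with at least 2 probe sets above the level filter. The dashed line marks equal differences, with hsp90aa1.2 and dsc2l close to it, cyp51 above it and mpx and nudcd2 nearer to 0 on the second probe set.

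Below the level filter lay 4797 of the members, where 5 (0.104%) were at least 1.5-fold higher and 3 (0.0625%) lower. The farthest was slc6a11a, which encodes a transporter of the neurotransmitter GABA, at 4.50 on the control array, 3.83 with BcP and 5.18 with 3-OHBcP, a difference of 1.35. The tRNA phosphotransferase gene trpt1 stood at 5.17, 4.36 and 5.31, the clock repressor gene nr1d2a at 5.06, 4.52 and 5.31, and ddit4, a stress-induced inhibitor of the growth kinase mTOR, at 4.22, 3.67 and 4.39. On each of these the BcP array was the lowest and the 3-OHBcP array the highest. They were picked by the gap between the compound arrays, and only the place of the control array was not set by that. The lowest were tmem230b, at 4.17, 4.90 and 4.23, and the mrps18b probe set given above, and the proenkephalin gene penkb differed by -0.55.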

How the data were processed

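The values deposited by the authors, 1 for each probe set on each array, were taken as log2 signal from their range, because the file header does not say. Per the submitters' processing notes the values came from Affymetrix Expression Console. Its version, its summarization and normalization algorithm and the genome build are not given in the sources used here. Per the labels' protocols, a 15 min DNase I digestion preceded labelling of 500 ng of RNA from the 3' end of transcripts, and RNA integrity numbers had to exceed 8.5.

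No further scaling was applied. Of 15617 probe sets, 115 were controls, 135 had several symbols and 4572 none. Symbols came from the platform annotation and were updated through gene identifiers to the RefSeq table of assembly GRCz12tu, which held 10711 of the 10795 members. That table served for names and neighbours only.

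Differences, fold changes and counts were computed with Python 3.11.15, numpy 2.4.6, pandas 2.3.3 and statsmodels 0.14.6, and the procedure was tested on simulated data. No test was possible with 1 array per group. The members and the 54 gene lists were chosen with earlier results of these data known, and patterns of a few lists were corrected for names caught in error, without regard to values. Some such names remain and were counted. Examples are the tRNA synthetase genes rars1 and rars2 in the nuclear receptor list. The protease inhibitor genes timp2a and timp2b are in the mitochondrial import list and also in the inflammatory list. Some lists share genes. Named genes were the 20 highest and 20 lowest kept genes, the 10 farthest probe sets below the filter, the 4 farthest kept members of each list, other probe sets of these genes, and a set of receptor, P450, bone and osteoclast genes at any level. Other list members are named after their values were seen. The 9 alternatives changed the level filter, the scaling, an offset, the probe set per gene and the removal of probe sets that may match several transcripts.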

Additional observations from a re-analysis of the deposited data

Results flagged for a closer look

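The probe sets that carry no single gene name lie outside the comparison. Given here are the farthest, up to 2 on each side, of those at least 2-fold apart between the compounds. They also had to lie above the control array on the array with the higher compound signal. A probe set with 2 gene symbols, of the same cluster as the second hsp90aa1.2 probe set, was higher with 3-OHBcP by 1.36, at log2 6.94 on the control array, 5.99 with BcP and 7.35 with 3-OHBcP. An unnamed probe set was lower by 2.49 on the log2 scale (-2.49), at 6.20, 7.20 and 4.71, a larger gap than that of any named gene. Another unnamed probe set differed by -1.32, at 8.68, 9.53 and 8.21. In both unnamed probe sets the BcP array was the highest of the 3, which the way they were chosen required. Of 4707 probe sets without a single symbol, 11 were higher and 11 lower at 1.5-fold, and 1 and 4 at 2-fold.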

How the results depend on the processing

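Genes at least 1.5-fold apart numbered 25 higher and 7 lower, and at least 2-fold apart 5 and 1. With 32 added to the linear value, the 1.5-fold counts were 13 and 3, the 2-fold lower count was 0, and the counts over all member probe sets were 18 and 3 in place of 38 and 11. With the filter on signal raised to the 75th percentile, which keeps 2812 genes, the lower counts were 4 at 1.5-fold and 0 at 2-fold. At 1.2-fold the counts of 183 higher and 180 lower became 136 and 95 with the offset of 32 and 125 and 89 with the 75th percentile filter. The other counts of genes at 1.2-fold, 1.5-fold and 2-fold stayed within 1.5 times those reported. No named gene at least 1.2-fold apart and no list median of 0.05 or more took the opposite sign under the 9 alternatives. Among named genes the offset of 32 moved 21 of 222 differences by more than the SD across genes of 0.143, for example cyp8b1.3 to 1.82, irg1l to 1.01 and cpa5 to -0.94. Averaging all probe sets of a gene moved 9 of 209, such as efna5a to 0.12, and leaving out probe sets that may match several transcripts moved 3 of 215, such as cyp51 to 1.16 through its other probe set and derl2 to -0.02. No paired analysis was possible because each group has 1 array. The number of arrays and the many exactly equal values limit what can be read from small differences.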
